A study of Mus musculus with 2 samples.

Results

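Aminoacyl-tRNA synthetases and the genes of the ATF4 amino acid response were compared between follicular and marginal zone B cells of mouse spleen. The set was chosen by gene name, with earlier results of these data known. It held 20 cytosolic synthetases, 3 scaffold proteins of the multisynthetase complex and 6 enzymes of asparagine, serine and transaminase metabolism. With 4 folate enzymes, ATF4 and 3 stress genes these made 37 genes in all. Probe sets of a single annotated gene were found for 35 of them; the table held none named Dars or Mars. Of the 35, 34 had a signal above the background floor (12.7, the median of all scaled values) on at least 1 array, out of 7695 such genes in all. Gpt2, a mitochondrial alanine transaminase, was the exception, with no probe set above 8.71 on either array.

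The material was wild-type, from female C57BL/6 mice, with B cells of 3 spleens enriched by magnetic beads against B220 and then sorted on CD21 and CD23. Follicular B cells were the cells with high CD23 and intermediate CD21, and marginal zone B cells those with intermediate CD23 and high CD21. Sorted cells were pooled and hybridised to 1 Affymetrix array per population, so no replicate error can be given, the populations could not be tested against each other, and differences are described by their size. The labels do not state an age or whether the same mice gave both populations. Signals are scaled MAS5 intensities in arbitrary units; because both arrays were scaled to the same trimmed mean, a share of the RNA is compared, and more cells with a transcript cannot be told apart from more of it per cell.

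A synthetase attaches an amino acid to its tRNA, the step that supplies charged tRNAs to the ribosome, and there is a separate enzyme for nearly every amino acid. Several cytosolic synthetases sit together in the multisynthetase complex, held by the scaffold proteins encoded by Aimp1, Aimp2 and Eef1e1. When amino acids run short or the endoplasmic reticulum is stressed, phosphorylation of the initiation factor eIF2 slows general translation and favours translation of ATF4, a transcription factor that induces synthetases, amino acid transporters and the enzymes of asparagine and serine synthesis. ATF4 binds with a C/EBP partner to a composite DNA element, and its own activity is controlled largely by translation, so its mRNA level need not follow its activity.

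Promoters of the set are shown first, because ATF4 acts through this composite element. RefSeq windows of 300 bases (250 before to 50 after the annotated start, GRCm38.p6) were matched by gene identifier for 30 of the 37 genes; Cars, Hars, Lars, Nars, Rars, Vars and Wars had none, and a gene with several windows counted once. The core TGATGNAA, or TTNCATCA when it lies on the opposite strand, was found in 8 of the 30 genes (26.7%), against 2.74% of 6269 measured genes and 4.51% of all 27025 genes with a window. The genes were chosen partly as known ATF4 targets, so this share is a property of the choice. The matches of 7 of these genes are printed 5′ to 3′ on the gene's strand with 11 bases on each side, and the core is in capitals.
Asns: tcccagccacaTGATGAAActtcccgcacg
Yars: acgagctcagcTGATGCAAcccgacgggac
Tars: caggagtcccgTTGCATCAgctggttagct
Got1: cattgcattggTTGCATCAtacaagcctcc
Iars: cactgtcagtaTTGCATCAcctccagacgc
Gars: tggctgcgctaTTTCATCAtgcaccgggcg
Trib3: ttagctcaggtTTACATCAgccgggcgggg

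The Asns window lies at chr6:7693214-7693243 on the minus strand, with the core starting 23 bases before the annotated start. The Tars window is at chr15:11399655-11399684 (minus), the Got1 window at chr19:43524689-43524718 (minus) and the Gars window at chr6:55037960-55037989 (plus), with cores 15, 102 and 30 bases before the start. The cores of Iars (chr13:49682126-49682155, plus), Yars (chr4:129189895-129189924, plus) and Trib3 (chr2:152344028-152344057, minus) begin 7, 3 and 14 bases after the start. The E-box CACGTG, the element bound by Myc and Max, reads the same on both strands. It occurred in Aars, Farsb, Iars and Tars, 4 of 30 genes (13.3%). The share was 12.4% of measured genes and 8.09% of all genes with a window. All 4 genes were synthetases, of which 13 had a window (30.8% with the E-box). The E-box overlapped no composite core. These matches describe letters in a window and do not show that a factor binds there.

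Nearly all genes of the set gave more signal in marginal zone than in follicular B cells, mostly by small steps. Of the 34 measured genes, 31 were higher in marginal zone cells, where 47.8% of all measured genes were. The median of their log2 ratios (marginal zone divided by follicular signal, here and below) was 0.40, a 1.32-fold difference, against -0.03 over all measured genes. Ddit4, Farsa, Asns, Shmt2 and Rars passed 2-fold on the marginal zone side, 5 of 34 where 4.39% of all measured genes were; the count was 3 with the floor at the 75th percentile, 2 when a pseudocount replaced the floor, and 4 both over the mean of probe sets and with the dimmest measured probe set. Shmt2 did not pass under any of the 3 other probe set rules. None of the 34 was 2-fold higher in follicular cells, a direction in which 4.86% of all measured genes passed that size. At 1.5-fold, 10 were higher in marginal zone cells (13.7% of all measured genes) and 0 in follicular cells (15.8%). Hars, Shmt1 and Wars had the higher signal in follicular cells, by 1.02-fold to 1.14-fold, and Shmt1 turned to the marginal zone side in the values as deposited, with scaling to the median, with quantile normalization, and under the mean and dimmest probe set rules.

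**Figure D1:**
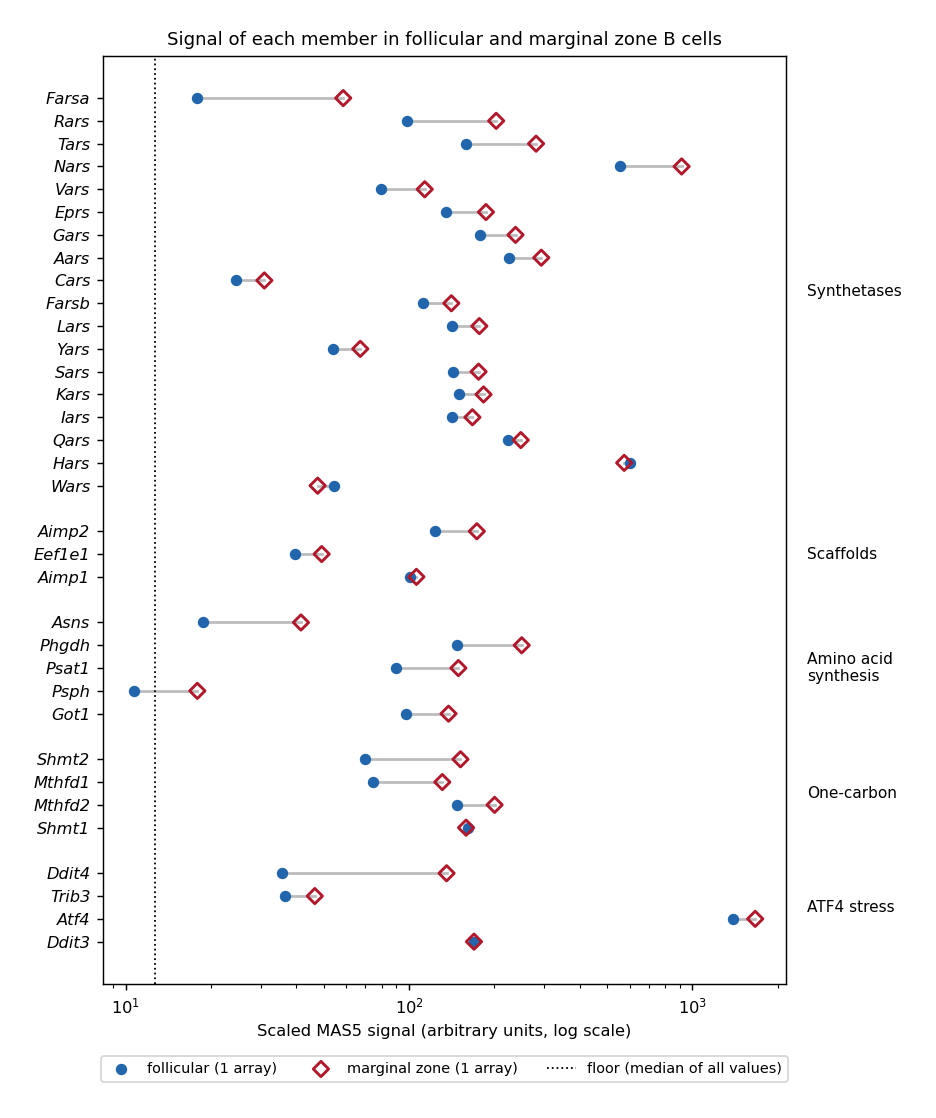
Scaled MAS5 signal (arbitrary units, log axis) of the 34 measured genes by role, from 1 follicular array (filled circles) and 1 marginal zone array (open diamonds); the dotted line is the floor of 12.7. The diamond lies to the right of the circle in 31 genes, farthest for Ddit4 (35.6 and 135.7) and Farsa (17.9 and 58.6).

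**Figure D2:**
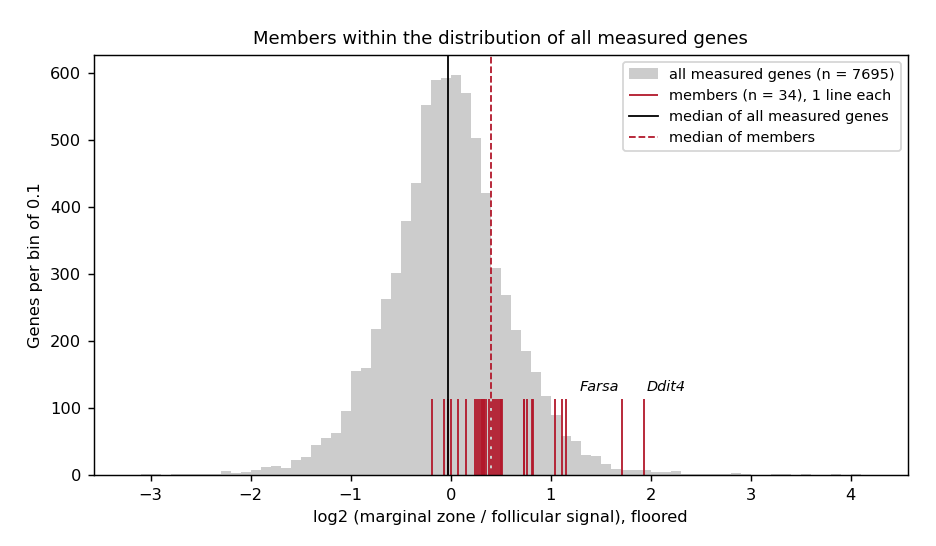
Log2 of marginal zone divided by follicular signal for 7695 measured genes (grey histogram, bins of 0.1) with a line for each of the 34 genes of the set. The median of the set, 0.40, lies to the right of that of all genes, -0.03.

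Among the synthetases, 16 of 18 measured genes were higher in marginal zone cells, where 47.8% of all measured genes were. The median log2 ratio of the 18 was 0.33, in a range from -0.19 to 1.71, against -0.03 over all measured genes. Farsa, the alpha chain of phenylalanyl-tRNA synthetase, was at 17.9 in follicular and 58.6 in marginal zone cells, 3.28-fold higher in marginal zone cells and rank 56 of 7695 genes by log2 ratio. The beta chain of the same enzyme, Farsb, was at 112.0 and 141.0, a ratio of only 1.26. The 2 chains work as a complex, and their transcripts did not differ by the same amount. The Farsa value comes from a single probe set whose follicular signal was close to the floor, and its log2 ratio was 0.36 with the floor at the 75th percentile. The 4 probe sets of Farsb ran from -0.71 to 0.33 on the log2 scale, so its direction depended on the probe set.

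Rars, which charges arginine, was at 98.3 in follicular and 203.0 in marginal zone cells, a 2.06-fold difference by its single probe set. Tars, the threonine enzyme whose core element is printed above, was at 158.6 and 280.7, 1.77-fold higher in marginal zone cells. Nars, which charges asparagine, was at 553.0 and 915.7 by its brightest probe set, a ratio of 1.66, and its other probe set gave 2.08-fold (128.1 and 266.0). Tars and Nars thus came next after Farsa and Rars in the order of ratios.

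The bulk of the synthetases lay between 1.18-fold and 1.42-fold in the same direction. Vars, the valine enzyme, was at 79.8 and 113.6 (1.42-fold), and Eprs, which joins the glutamate and proline activities in 1 protein, was at 135.5 and 186.9 (1.38-fold) with all 3 probe sets higher in marginal zone cells. Gars, for glycine, was at 177.3 and 237.5 (1.34-fold), and Aars, for alanine, at 224.9 and 292.8 (1.30-fold). Cars (cysteine), Lars (leucine), Yars (tyrosine), Sars (serine), Kars (lysine) and Iars (isoleucine) followed in that order with folds from 1.26 to 1.18. Apart from Vars and Eprs, each of these differences was smaller than the SD of 0.43 on the log2 scale between probe sets of 1 gene, pooled over 2622 genes. What these genes share is the direction.

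Besides Farsb, whose direction depended on the probe set, Qars, Hars and Wars were the synthetases that did not follow this direction clearly. Qars, for glutamine, was at 223.2 and 247.9 by its brightest probe set (1.11-fold), but the other 2 measured probe sets were lower in marginal zone cells, at -0.14 and -0.86 on the log2 scale. Hars, the histidine enzyme, was at 601.3 and 574.2, a log2 ratio of -0.07, with its other probe set at -0.30. Wars, for tryptophan, known also as an interferon-induced gene, was at 54.3 and 47.6, a log2 ratio of -0.19, and all 3 measured probe sets lay between -0.24 and -0.19.

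Grouping by structure or by complex did not separate the synthetases. Class I enzymes, built on a Rossmann fold (Eprs counted here by its glutamate domain), had a median of 0.32, and 8 of 9 were higher in marginal zone cells. Class II enzymes, with an antiparallel fold, had a median of 0.38, also with 8 of 9 higher. The 9 measured genes of the multisynthetase complex, scaffolds included, had a median of 0.32, and all 9 were higher in marginal zone cells, where 47.8% of all measured genes were; Qars among them depended on the probe set. The 12 synthetases outside the complex had a median of 0.36, with 10 higher in marginal zone cells. Of the scaffolds, Aimp2 was at 123.8 and 173.5 (1.40-fold), Eef1e1 at 39.5 and 49.2 (1.24-fold), and Aimp1 at 100.7 and 106.2 (1.05-fold).

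The amino acid synthesis enzymes had larger ratios. All 5 measured genes of this group were higher in marginal zone cells, where 47.8% of all measured genes were. Among the 5, Psph passed the floor through the marginal zone array alone and could lie on no other side. The median log2 ratio of the group was 0.74, or 1.66-fold. Asns, which makes asparagine from aspartate and is a classical ATF4 target, was at 18.7 in follicular and 41.6 in marginal zone cells, 2.22-fold, and its other probe set gave a log2 ratio of 0.91. Its own product is the substrate of Nars, and both had higher signals in marginal zone cells.

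The serine pathway was represented at each of its 3 steps. Phgdh, which oxidises the glycolytic intermediate 3-phosphoglycerate, was at 147.5 and 249.8 (1.69-fold). Its 4 probe sets were all on the marginal zone side, from 0.01 to 0.87 on the log2 scale. Psat1, the transaminase of the next step, was at 89.7 and 149.3 (1.66-fold), with its other probe set at 0.64. Psph, the phosphatase that releases serine, was at 10.7 and 17.9. Relative to the floor its fold is at least 1.41 toward marginal zone cells; it passed the floor only through its marginal zone signal and so could only lie on that side. Got1, the cytosolic aspartate transaminase, was at 97.6 and 137.9 (1.41-fold).

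The folate enzymes that move one-carbon units from serine were less uniform, and here the probe sets disagreed most. Shmt2, the mitochondrial enzyme that splits serine into glycine and a one-carbon unit, was at 70.1 and 151.9 by its brightest probe set, 2.17-fold higher in marginal zone cells. Its other 3 probe sets were at 0.05, at -0.45 and, with a follicular signal below the floor, at no less than 0.31 on the log2 scale, and their mean with the brightest was 0.26. Shmt1, the cytosolic form, was at 161.7 and 159.0; its log2 ratio was -0.02. Its other measured probe sets were at 0.96 (15.4 and 29.8) and at least 0.06, the latter with a follicular signal below the floor, and their mean with the brightest was 0.33. Mthfd1, the cytosolic folate enzyme with 3 activities, was at 74.4 and 131.0 (1.76-fold), and its other probe sets were at -0.06 and, with a follicular signal below the floor, at no less than 1.45. Mthfd2, its mitochondrial counterpart, was at 147.6 and 200.4 (1.36-fold), and the log2 ratio of its other probe set was 0.54. Of the 4 genes, Mthfd2 was the one whose probe sets were all on the marginal zone side.

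**Figure D3:**
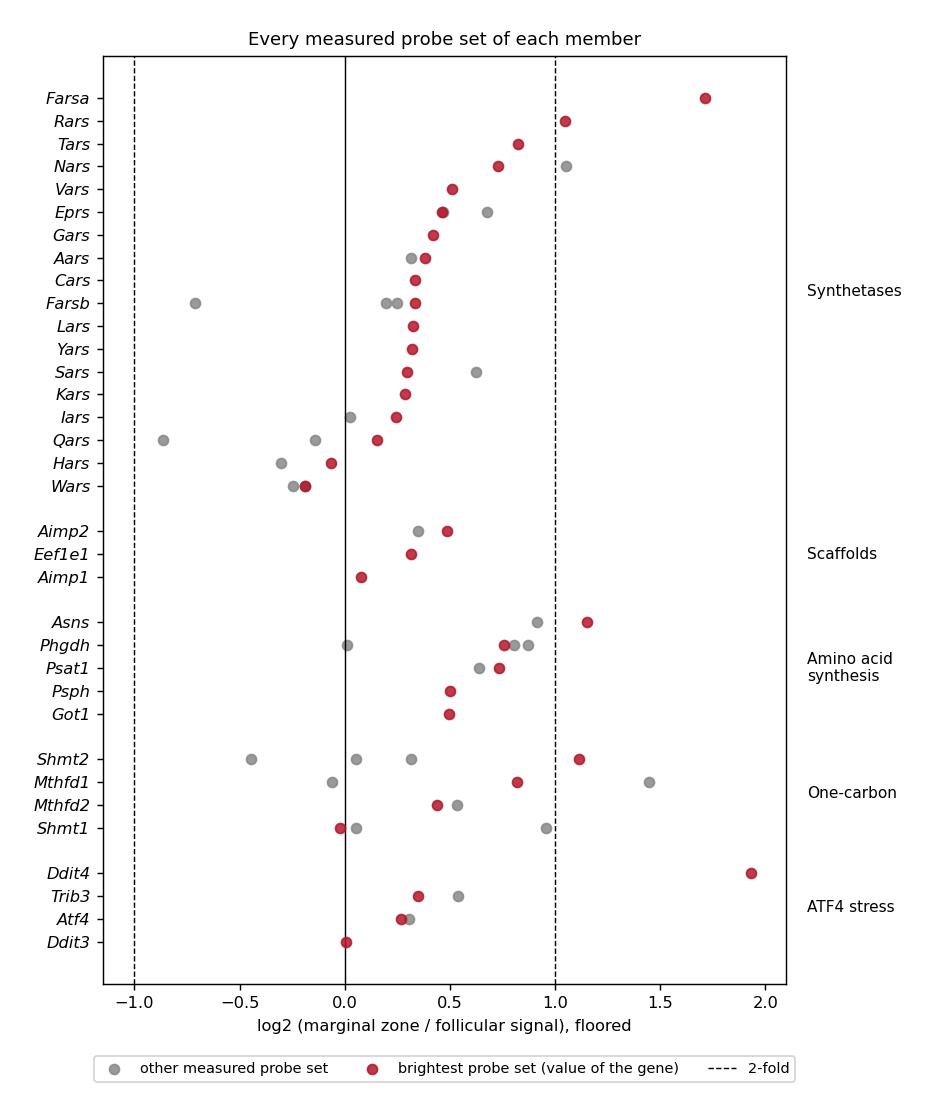
Log2 of marginal zone divided by follicular signal for each of the 64 measured probe sets of the 34 genes; red points are the brightest probe set of a gene, grey points the others, dashed lines 2-fold. Of the grey points 22 of 30 lie to the right of 0; those of Farsb, Qars and Shmt2 spread to the left.

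ATF4 itself differed little. Atf4 was at 1384 in follicular and 1664 in marginal zone cells, 1.20-fold, and the log2 ratio of its other measured probe set was 0.31. Ddit3, which encodes the stress factor CHOP, was at 168.9 and 169.5, the nearest to equal of the 34 genes in this scaling, and Trib3, a pseudokinase that restrains ATF4 and CHOP, was at 36.5 and 46.5 (1.28-fold). Ddit4, which encodes REDD1, an inhibitor of mTORC1, had the largest ratio of the set, at 35.6 and 135.7, 3.81-fold higher in marginal zone cells and rank 40 of 7695. It has a single probe set, and ATF4 is one of several factors known to induce it, beside glucocorticoid and hypoxia signals. The group thus held both the largest and the smallest difference of the set.

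Probe sets that were not used for the gene values had the same tilt. Of 30 such probe sets from 19 genes, 22 were higher in marginal zone cells, where 47.8% of all measured probe sets were, and 2 passed 2-fold there, as did 4.36% of all measured probe sets, with 0 past it on the follicular side (5.02%). Of the 22, 3 were above the floor on the marginal zone array only, so they could lie on no other side, and 1 of the 2 past 2-fold was among them. Their median was 0.31. Of the 19 genes with several measured probe sets, 12 had all of them on the marginal zone side and 5 had probe sets of both signs. These probe sets share the arrays and RNA of the others, so they check probe behaviour and not the cells.

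Genes with and without the composite core are given side by side, as a description. All 8 with it were higher in marginal zone cells, where 47.8% of all measured genes were. Their median was 0.40, against -0.03 over all measured genes. Of the 8, 1 passed 2-fold, Asns (4.39% of all measured genes). The 19 measured genes with a window and no core had a median of 0.44, with 18 higher in marginal zone cells (47.8% of all measured genes). Ddit4, Farsa and Shmt2 were among the genes with no core in the window.

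Mitochondrial synthetases, which charge the tRNAs of the organelle, were mixed, with a median of 0.17 over 7 measured genes. In marginal zone cells 4 were higher, near the 47.8% of all measured genes, and 0 passed 2-fold in either direction (4.39% and 4.86% of all measured genes). On the follicular side, Pars2 was at 26.5 and 13.9 (1.91-fold) and Hars2 at 39.5 and 23.7 (1.67-fold). Rars2 was at 23.4 and 34.0 (1.45-fold) and Iars2 at 31.7 and 43.7 (1.38-fold), both higher in marginal zone cells. For histidine the cytosolic and mitochondrial enzymes were thus both on the follicular side, and for arginine and isoleucine both on the marginal zone side. The other measured pairs are added with their values in view. For glutamate and proline the sides were opposite: Eprs was higher in marginal zone cells, Ears2 (log2 ratio -0.28) and Pars2 in follicular cells. Tars2 (0.46) and Fars2 (0.17) were on the marginal zone side, as were Tars and Farsa, while Farsb depended on the probe set. Whether the cytosolic and mitochondrial families differ could not be tested with 1 array per population.

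Other known ATF4 targets had a median of 0.39 over 12 measured genes. Of these, 8 were higher in marginal zone cells (47.8% of all measured genes), 2 past 2-fold there (4.39%) and 0 past it in follicular cells (4.86%). Cbs, at 11.3 and 21.7, passed the floor through its marginal zone signal alone. Atf5, at 15.6 and 7.32, passed it through its follicular signal alone, so neither gene could lie on the other side. Atf3, a stress-induced repressor, was at 52.5 and 246.9 (4.70-fold), and Aldh18a1, which starts proline synthesis, at 29.1 and 68.9 (2.37-fold), although its 4 probe sets ran from 0.04 to 1.24 on the log2 scale. Eif4ebp1, which encodes an inhibitor of cap-dependent translation, was 1.93-fold and Chac1, a glutathione-degrading enzyme, 1.84-fold higher in marginal zone cells. The other probe set of Eif4ebp1 was at -0.39. The core was found in 8 of 17 genes of this list with a window, and 4 of the 8 were measured: Atf3 and Chac1 were higher in marginal zone cells, and Herpud1 (-0.41) and Jdp2 (-0.20) were lower on the log2 scale.

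Amino acid transporters had a median of 0.17, with 6 of 9 measured genes higher in marginal zone cells (47.8% of all measured genes) and 0 past 2-fold in either direction (4.39% and 4.86%). Of the 6, Slc7a11, at 2.93 and 14.3, passed the floor through its marginal zone signal alone. Slc3a2 and Slc7a5, the chains of a carrier of large neutral amino acids, were at 381.5 and 622.4 (1.63-fold) and at 67.5 and 99.5 (1.47-fold). Slc7a3, a carrier of cationic amino acids, was 1.44-fold and Slc38a1, a glutamine carrier, 1.25-fold higher in marginal zone cells.

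The genes that control eIF2 went both ways, with a median of 0.06. Of 12 genes, 7 had more signal in marginal zone cells and 0 passed 2-fold in either direction, counts near the shares of all measured genes (47.8%, 4.39% and 4.86%). Ppp1r15b, a subunit of the phosphatase that resets eIF2, was higher in follicular cells (289.5 and 146.1, 1.98-fold). Eif2ak3, the kinase PERK, was also higher there (741.6 and 478.0, 1.55-fold), but its 3 probe sets ran from -0.64 to 0.08. Impact, an inhibitor of the amino acid sensor GCN2, was at 397.4 and 668.9, 1.68-fold higher in marginal zone cells, and Eif2b1, a subunit of the eIF2 exchange factor, was 1.28-fold higher in follicular cells. The GCN2 gene itself, Eif2ak4, had signals of 49.5 and 52.2 and was picked with its values in view.

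**Figure D4:**
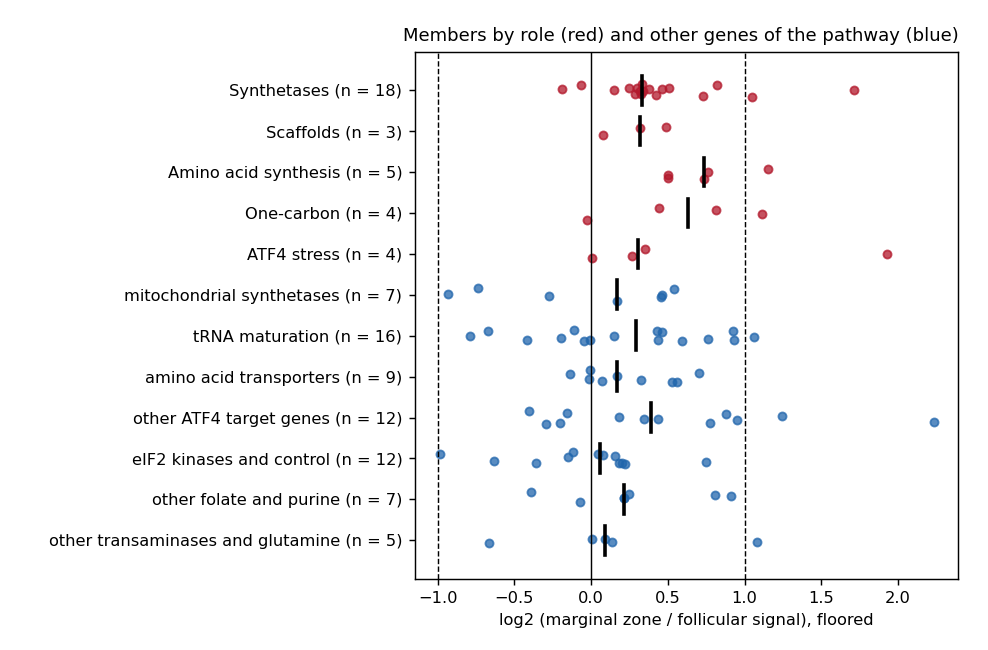
Log2 of marginal zone divided by follicular signal for the genes of the set by role (red) and for 7 lists of other genes of the pathway (blue); each point is a gene, black bars are medians, dashed lines 2-fold, and the vertical scatter within a row is random. The 5 medians of the set run from 0.31 to 0.74 and those of the other lists from 0.06 to 0.39.

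Further lists on the supply of tRNA and one-carbon units were read gene by gene. Of 16 measured genes of tRNA maturation, 9 were higher in marginal zone cells (median 0.29), with 1 past 2-fold there and 0 in follicular cells, again near the shares of all measured genes (47.8%, 4.39% and 4.86%). Tsen15, at 11.4 and 17.4, was among the 9 and passed the floor through its marginal zone signal alone. Elac2, which trims the 3′ end of tRNAs, was at 27.3 and 57.0 (2.09-fold), and the tRNA-modifying enzymes Pus7 (1.91-fold) and Nsun2 (1.90-fold) were on the same side. Clp1, an RNA kinase of tRNA splicing, was 1.73-fold higher in follicular cells. Of 7 other folate and purine enzymes, 5 were higher in marginal zone cells (median 0.22, against 47.8% of all measured genes higher there). They were led by Ppat (1.88-fold), which starts purine synthesis, and Gcsh (1.75-fold), a carrier of the glycine cleavage system. Gldc, at 13.3 and 0.990, passed the floor through its follicular signal alone and could lie only on that side. Adsl was 1.19-fold higher in marginal zone cells and Gart 1.31-fold higher in follicular cells, although its 3 probe sets ran from -0.39 to 1.23. Of 5 other transaminase and glutamine genes, 4 were higher in marginal zone cells (47.8% of all measured genes), with a median of only 0.09. In marginal zone cells 1 passed 2-fold (4.39%), and 0 did in follicular cells (4.86%). That gene was Got2, the mitochondrial partner of Got1, at 246.1 and 520.6, 2.12-fold higher in marginal zone cells. Glul, glutamine synthetase, was higher in follicular cells (158.6 and 100.0, 1.59-fold), while Glud1 and Oat were within 1.10-fold.

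Myc, a transcription factor known to induce synthetase, serine and one-carbon genes, was at 78.6 in follicular and 196.8 in marginal zone cells, 2.50-fold. Of its relatives, Mxi1, which opposes Myc, was higher in follicular cells (41.5 and 25.04, 1.66-fold). Max and Mycn were near the floor, at 9.40 and 15.0 and at 16.5 and 5.74. Whether the difference in Myc has a part in the values of the set was not tested.

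The sort and the purity of the populations were checked on the same arrays. Fcer2a, which encodes CD23, was at 726.8 and 89.6, and Cr2, which encodes CD21, at 277.9 and 889.9, each in the direction of its gate. All 7 B cell markers on the array were above the floor, with Ighm at 3673 and 2958. Their summed signal was 8187 in follicular and 6927 in marginal zone cells. In marginal zone cells 5 of the 7 were lower, among them Cd79b (1.90-fold) and Cd79a (1.70-fold), both singled out after their values were seen. The other 2 were higher there, Blk at 178.7 and 392.5 (2.20-fold) and Ms4a1 by 1.07-fold. Blk was the only 1 of the 7 past 2-fold in either direction. Macrophage and monocyte markers were higher in the marginal zone sample: 7 of 12 passed the floor, all 7 with more signal there, although Cd68, C1qb, Cd5l and Vcam1 passed it through the marginal zone array alone and could lie on no other side. The summed signal of the 12 was 96.2 in follicular and 191.5 in marginal zone cells. The brightest, Csf1r, was at 17.3 and 42.5, and its 3 probe sets ran from 0.17 to 1.70 on the log2 scale. Cd5l was at 11.1 and 26.7 and Lyz2 at 12.9 and 25.2. Adgre1, named after its values were seen, was nearly equal, at 23.7 and 24.9. C1qa, C1qc, Marco, Fcgr1 and Cd163 were below the floor on both arrays. Plasma cell markers summed to 1077 and 1329, mostly from Xbp1 and Irf4, which B cells also express. The sum takes the brightest probe set of Xbp1, whose 4 probe sets ran from -0.98 to 0.73 on the log2 scale. Within the plasma cell list Sdc1 was at 68.3 and 4.35 and Prdm1 at 12.7 and 30.9, in opposite directions. Natural killer cell markers summed to 45.9 and 74.2 and dendritic cell markers to 40.2 and 61.7. T cell, granulocyte, erythroid and platelet markers had no signal above 20.4. The part of these other cells in the higher signals of the set was not tested.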

How the data were processed

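Signals of 1 follicular and 1 marginal zone array were analysed. The deposited intensities are linear and, per the submitters' processing notes, MAS5 signals; the MAS5 version and its scaling target were not stated there. Both arrays were brought to a common 2% trimmed mean (factors 1.01 and 0.990), values below the median of all values (12.7) were raised to it, and a probe set counted as measured if either value exceeded this floor. Of 22626 probe sets, 20380 had 1 gene in the platform annotation, 691 several and 1555 none; the identifiers of all 35 genes of the set found on the array were present in RefSeq (GRCm38.p6). A gene is represented by its brightest measured probe set (mean log2 over the arrays). A fold is written "at least", and a log2 ratio "no less than" or "at least", where 1 array was below the floor.

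With 1 array per group no error, test or p-value exists, and the number of arrays limits the precision. The set, its subgroups, the lists and the motifs were chosen with earlier results of these data known. Named are all genes of the set on the array, up to 4 genes per pathway list with the largest absolute log2 ratio, the sort markers, and the brightest markers of other cells; a planned look at protein motifs was not made, since protein sequences were not used here. The promoter sequence of Aars is not reported here. The scaling and gene values were tested on simulated data, with effects put only into genes well above the floor. The simulated noise was smaller than the SD between probe sets of 1 gene. Differences near the floor and probe sets that disagree as widely as the real ones were thus not covered. Alternatives were 4 scalings, 4 treatments of the floor, 3 probe set rules and 2 thresholds. Python 3.11.15, pandas 2.3.3 and statsmodels 0.14.6 were used.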

Additional observations from a re-analysis of the deposited data

How the results depend on the processing

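No paired analysis was possible because each population has 1 array. Under the 11 settings of scaling, floor and probe set rule, 30 to 32 of 34 genes of the set were higher in marginal zone cells (28 of 31 with the floor at the 75th and 32 of 35 at the 25th percentile), and their median log2 ratio ran from 0.34 to 0.45, against -0.04 to 0.02 for all measured genes; 0 genes of the set were 2-fold higher in follicular cells under any setting. The count past 2-fold on the marginal zone side was 5, but 3 with the floor at the 75th percentile, 2 when a pseudocount replaced the floor, 4 over the mean of probe sets and 4 with the dimmest measured probe set, 10 at a 1.5-fold and 2 at a 3-fold threshold. The median of the one-carbon enzymes, 0.63, was 0.41 over the mean of probe sets, 0.18 with the dimmest measured probe set and 0.25 with probe sets that lack an _x, _s or _a ending; the probe sets of Shmt1, Shmt2 and Mthfd1 disagreed. Of the 371 values of single genes, 361 moved by less than the probe-set SD of 0.43. Farsb, Qars, Shmt1 and Mthfd1 changed sign under at least 1 setting, and Shmt2 fell to 0.05 under the last of these rules. Signals near the floor limit Farsa, Asns, Psph and Cars.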

Other observations

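A pair of probe sets annotated to Phgdh together with a predicted gene was left out of the comparison. Their signals were 26.2 in follicular and 41.4 in marginal zone cells for the first and 61.4 and 73.4 for the other, log2 ratios of 0.66 and 0.26. The 3 probe sets of Gpt2, all below the floor, had signals of 2.22 and 7.13, 6.77 and 8.71, and 5.66 and 1.29, in the same order of populations.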
